A study of Mus musculus with 15 samples.

Results

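S100 proteins are small calcium-binding proteins of vertebrates, and 10 of their genes were followed here in basal cell carcinoma of mouse skin: S100a3, S100a4, S100a6, S100a8, S100a9, S100a10, S100a11, S100a13, S100a14 and S100a16. The genes were taken as a given list and found by NCBI Gene identifier, all 10 among the 36528 genes of each library. Polyadenylated RNA was sequenced from tumour nests cut by laser capture from fresh frozen skin, in 15 libraries. Of these, 5 came from nests of mice given vismodegib for 28 days, 5 from untreated nests negative for Ki67, an antigen of dividing cells, and 5 from untreated nests positive for Ki67. All mice carried the alleles K14Cre-ER, Ptch1fl/fl, p53fl/fl and Lgr5GFP, so the untreated nests, labelled control, carry the same floxed genes as the treated ones. The keratin 14 promoter drives a tamoxifen-inducible Cre recombinase in basal epithelium, where it deletes Ptch1, the receptor that restrains the Hedgehog transducer Smoothened, and p53, and Lgr5GFP marks cells that express Lgr5. Vismodegib inhibits Smoothened. The labels tie no library to an animal and give neither age nor sex, so libraries of a group may share an animal. If they do, p-values are smaller than they should be, and the spread they measure may be partly technical. Ki67-negative and Ki67-positive libraries may share an animal too, a pairing that the tests could not use.

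An S100 protein carries a pair of EF-hand loops, binds calcium, and usually works as a dimer that changes shape and grips a partner protein when calcium rises. Most S100 genes of the mouse lie in the epidermal differentiation complex of chromosome 3, among genes for the cornified envelope that keratinocytes build as they leave the basal layer. Inside cells S100 proteins act on annexins, the cytoskeleton and other targets, and S100a8 with S100a9 is also secreted, as calprotectin, by neutrophils, monocytes and stressed keratinocytes.

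The listed genes form 2 blocks on chromosome 3 of the RefSeq annotation of GRCm38.p6. The first, of 181.5 kb (chr3:90514233-90695721), holds S100a13, S100a14, S100a16, S100a3, S100a4, S100a6, S100a8 and S100a9 in that order. The second, of 44.2 kb (chr3:93520496-93564645), holds S100a11 and S100a10. The gene models of S100a13 and S100a1 share 98 bases, and the model of S100a3 encloses that of S100a2, so reads in those stretches cannot be assigned with certainty where strand is not used.

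The windows of 250 bases before the annotated starts were read for 8 of the 10 genes, and those of 4 genes that hold a searched motif are shown. S100a11 and S100a16 were higher after vismodegib in both comparisons, and S100a8 and S100a9 were the most variable of the family. S100a10 and S100a14 were also higher in both comparisons but had no window, so they were not searched. Sequences are RefSeq GRCm38.p6, read 5′ to 3′ on the gene's strand. Capitals mark TGAGTCA or TGAATCA, forms of the AP-1 motif TGANTCA, in S100a11 and S100a16, the TATA box TATAAA in S100a8, and TTGCTTAA, a form of the CEBP motif TTGCNNAA, in S100a9. The windows are chr3:93520246-93520495 for S100a11 and chr3:90540896-90541145 for a start inside the S100a16 gene, both on the plus strand. That of S100a8 is chr3:90668821-90669070 on the plus strand, and that of S100a9 is chr3:90695722-90695971 on the minus strand.
S100a11: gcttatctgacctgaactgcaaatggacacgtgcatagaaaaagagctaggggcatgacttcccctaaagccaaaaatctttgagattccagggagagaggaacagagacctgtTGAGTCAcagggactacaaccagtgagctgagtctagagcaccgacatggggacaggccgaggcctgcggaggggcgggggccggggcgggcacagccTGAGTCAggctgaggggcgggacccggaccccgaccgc
S100a16: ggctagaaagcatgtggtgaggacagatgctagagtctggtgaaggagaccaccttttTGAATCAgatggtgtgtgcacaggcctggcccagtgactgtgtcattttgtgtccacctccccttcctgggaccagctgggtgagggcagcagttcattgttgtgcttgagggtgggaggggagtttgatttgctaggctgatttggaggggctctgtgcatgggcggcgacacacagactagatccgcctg
S100a8: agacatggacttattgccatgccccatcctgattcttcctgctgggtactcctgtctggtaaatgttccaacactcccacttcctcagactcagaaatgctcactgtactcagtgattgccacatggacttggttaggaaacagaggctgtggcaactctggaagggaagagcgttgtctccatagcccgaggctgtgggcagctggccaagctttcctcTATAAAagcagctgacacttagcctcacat
S100a9: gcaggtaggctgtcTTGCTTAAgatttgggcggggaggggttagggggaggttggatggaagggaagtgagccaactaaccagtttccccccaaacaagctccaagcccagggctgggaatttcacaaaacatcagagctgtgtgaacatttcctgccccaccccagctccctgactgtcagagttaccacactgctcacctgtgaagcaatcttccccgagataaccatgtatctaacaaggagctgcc

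The window of S100a11 held TGAGTCA at 2 places, from -136 to -130 and from -38 to -32 counted from the start. That of the start inside the S100a16 gene held TGAATCA from -192 to -186. The other S100a16 window, chr3:90537004-90537253 before the start of the gene, held none of the motifs searched. The TATA box of S100a8 lay from -30 to -25 and the CEBP motif of S100a9 from -236 to -229. S100a4 held a TATA box from -31 to -26, and 1 of the windows of S100a3 held one from -52 to -47. Over 32851 RefSeq windows of the same length, 6.75% held the AP-1 motif, 9.56% the CEBP motif and 0.225% the GLI motif TGGGTGGTC, each on either strand, and 7.59% held TATAAA on the gene's strand. None of the 12 windows of these genes held the GLI motif. Those of S100a13 and S100a6 held none of the motifs searched. The motifs searched do not overlap one another in these windows, and a match describes letters and not a bound site.

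Libraries held 6413055 to 10328822 counts after vismodegib, 4887381 to 7158143 in Ki67-negative nests and 4929869 to 8359195 in Ki67-positive nests. Keratins 14 and 5 of basal keratinocytes were present in every group, with Krt14 at 2608, 785 and 988 CPM on average after vismodegib, in Ki67-negative and in Ki67-positive nests, where CPM is a count divided by the TMM-scaled library size in units of 1e6 counts. Ptch1 averaged 550.5, 3147 and 2973 CPM in the same order and Gli1, a Hedgehog target, 75.6, 385 and 339.7 CPM. Mki67 averaged 361 CPM in Ki67-negative and 776 CPM in Ki67-positive nests, the order that the labels give. After vismodegib it averaged 683 CPM, and every vismodegib library lay above every Ki67-negative one. Ki67-negative library 5 had the fewest genes with a count, 19669 against 21653 to 23322 in the other 14. In 5 libraries Xist counts, from an inactive X, were above those of Ddx3y, a gene of the Y chromosome: 3 of the vismodegib libraries (1, 2 and 3), Ki67-negative library 5 and Ki67-positive library 5.

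Vismodegib nests held more S100 RNA than either untreated group for 4 of the genes, S100a10, S100a11, S100a14 and S100a16, and more S100a13 than Ki67-positive nests. The rises were 1.70- to 2.76-fold, and no S100 gene was called lower after the drug. S100a6 and S100a4 had higher means after vismodegib that did not pass the test, S100a8 and S100a9 differed more between libraries of a group than between groups, and S100a3 was close to absent. Ki67-negative and Ki67-positive untreated nests did not differ detectably in any of the 9 S100 genes tested.

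Of the 10 genes, 9 had enough counts to be tested. Calls were made with edgeR's quasi-likelihood test, fitted over all 15 libraries, where the p adjusted by Benjamini-Hochberg over 17282 genes was under 0.05. Against Ki67-positive nests, 5 of the 9 were higher after vismodegib and 0 lower, where 26% of all genes tested were called, 12.6% higher and 13.4% lower. Against Ki67-negative nests, 4 were higher and 0 lower, where 31.9% of all genes were called, 15.4% higher and 16.5% lower. Among these 9 genes the median log2 difference was 0.76 against Ki67-positive and 0.78 against Ki67-negative nests, and over all genes tested it was -0.02 and -0.03. In 3 of the 9, S100a10, S100a11 and S100a13, all 5 vismodegib libraries lay above all 5 Ki67-positive libraries, as did 10.2% of all genes, and in 4, S100a10, S100a11, S100a14 and S100a16, all lay above all 5 Ki67-negative libraries, as did 10.4%. The comparisons with vismodegib share its 5 libraries.

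**Figure D1:**
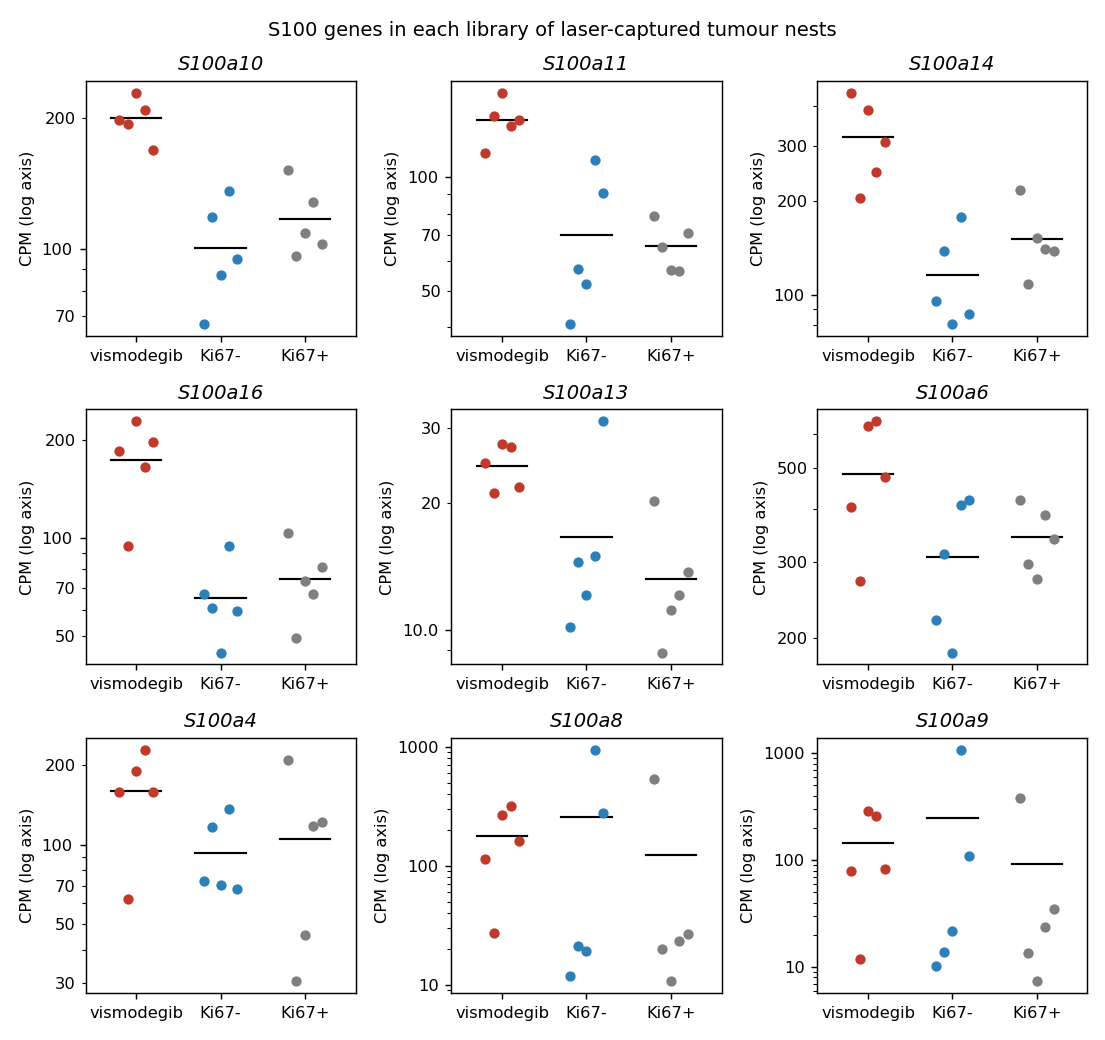
Each point is the CPM of 1 library on a log axis, for the 9 S100 genes tested, with the mean of each group of 5 as a line. S100a10 and S100a11 after vismodegib lie above both untreated groups, whereas S100a8 and S100a9 spread over most of their axis within every group.

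S100a10 encodes p11, the S100 partner of annexin A2, which holds the complex at the inner face of the plasma membrane. Its level was 198, 193, 229, 209 and 169 CPM in the vismodegib libraries, against 67.1, 118, 87.0, 136 and 95.0 CPM in Ki67-negative libraries and 152, 96.2, 109, 128 and 103 CPM in Ki67-positive libraries. Every vismodegib library lay above every untreated one. The log2 difference was 0.99 (SE 0.17, adjusted p = 0.000343) against Ki67-negative nests and 0.76 (SE 0.17, adjusted p = 0.00312) against Ki67-positive nests in edgeR's test. With only the 10 libraries in which Ddx3y exceeded Xist, which leaves 2 vismodegib libraries, the second call was lost (log2 difference 0.65, adjusted p = 0.116).

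S100a11 is a partner of annexin A1 and is made by keratinocytes. Vismodegib libraries held 116, 145, 168, 137 and 142 CPM, against 40.7, 57.1, 52.1, 111 and 90.5 CPM in Ki67-negative libraries and 78.6, 65.1, 56.7, 56.3 and 70.99 CPM in Ki67-positive libraries. The lowest vismodegib library stood just above the highest Ki67-negative library and well above all Ki67-positive ones. S100a11 was higher by 1.01 (log2, SE 0.22, adjusted p = 0.00203) against Ki67-negative and 1.11 (SE 0.22, adjusted p = 0.00103) against Ki67-positive nests.

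S100a14, an S100 protein of epithelia, was the member with the largest fold against Ki67-negative nests. It reached 443, 204, 390.2, 248 and 309 CPM in vismodegib libraries, against 95.4, 138, 80.4, 177 and 86.6 CPM in Ki67-negative libraries and 216, 108, 152, 139.7 and 138 CPM in Ki67-positive libraries. Vismodegib library 2 overlapped with the highest Ki67-positive library, and the groups were otherwise apart. The log2 difference was 1.46 (SE 0.25, adjusted p = 0.000274) against Ki67-negative and 1.08 (SE 0.25, adjusted p = 0.00350) against Ki67-positive nests. The second call was also lost in the libraries with Ddx3y above Xist (log2 difference 0.86, adjusted p = 0.0773).

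S100a16, a widely expressed member, held 185, 94.2, 228, 165 and 197 CPM in vismodegib libraries, against 67.0, 60.9, 44.2, 94.2 and 59.7 CPM in Ki67-negative libraries and 103, 49.0, 73.4, 67.1 and 81.1 CPM in Ki67-positive libraries. Vismodegib library 2 was again the lowest of its group, level with Ki67-negative library 4 and under Ki67-positive library 1. The log2 difference was 1.41 (SE 0.24, adjusted p = 0.000217) against Ki67-negative and 1.22 (SE 0.24, adjusted p = 0.000870) against Ki67-positive nests.

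S100a13, which takes part in the release of fibroblast growth factor 1 and interleukin 1 alpha, was the least abundant per length of the genes called. Vismodegib libraries held 24.8, 21.03, 27.4, 27.0 and 21.7 CPM, against 10.2, 14.5, 12.1, 14.95 and 31.1 CPM in Ki67-negative libraries and 20.1, 8.84, 11.2, 12.1 and 13.8 CPM in Ki67-positive libraries. Ki67-negative library 5 exceeded every vismodegib library, and the other 9 untreated libraries lay below them all. The log2 difference was 0.89 (SE 0.28, adjusted p = 0.0258) against Ki67-positive nests and 0.56 (SE 0.28, adjusted p = 0.137, not called) against Ki67-negative nests. The call rested on small margins: it was lost without vismodegib library 3 (adjusted p = 0.0578), Ki67-positive library 2 (0.0683), 3 (0.0596) or 4 (0.0566), with libraries of Xist above Ddx3y as a covariate (0.0645) and in the libraries with Ddx3y above Xist (0.0741). Without Ki67-negative library 5, S100a13 was called against Ki67-negative nests (log2 difference 0.92, adjusted p = 0.00596).

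**Figure D2:**
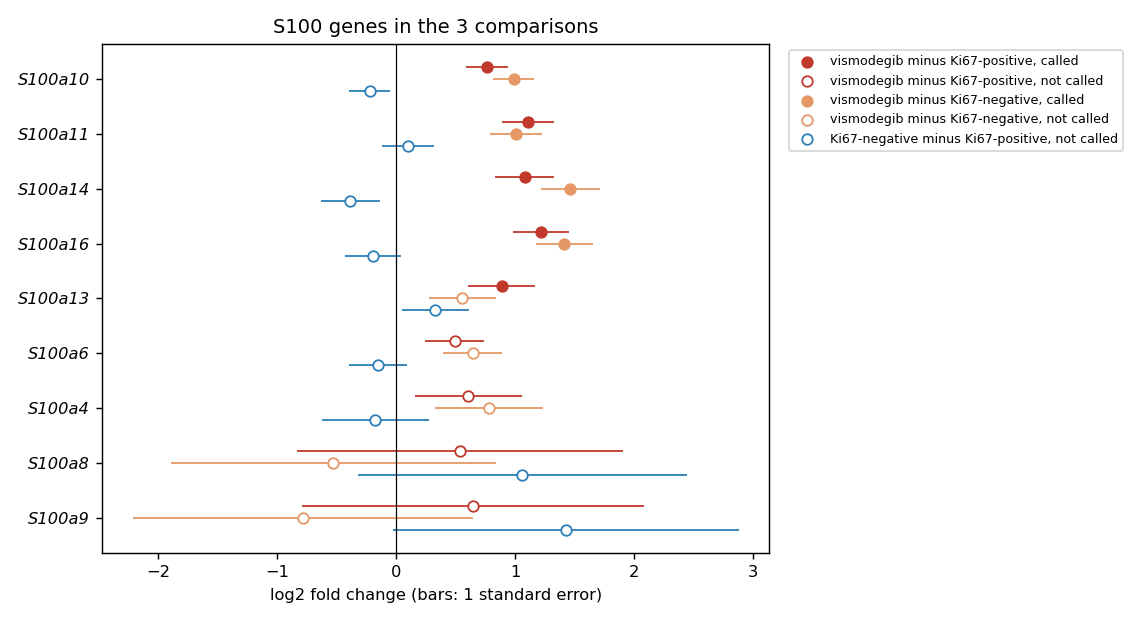
Log2 fold change of each tested S100 gene in each comparison, with its standard error from edgeR as a bar and filled points for adjusted p under 0.05. The 5 called genes sit between 0.76 and 1.46, and the bars of S100a8 and S100a9 cross 0 in both comparisons with vismodegib.

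S100a6, calcyclin, which binds the ubiquitin ligase adaptor Cacybp, had the highest level per length after vismodegib and in Ki67-positive nests. It held 404, 271, 624.8, 643 and 475 CPM in vismodegib libraries, against 219.6, 314, 184, 410.1 and 419.9 CPM in Ki67-negative libraries and 420.0, 298, 275, 388 and 341 CPM in Ki67-positive libraries. The groups overlapped, with vismodegib library 2 below 3 of the 5 Ki67-negative and all 5 Ki67-positive libraries.
Its log2 difference was 0.64 (SE 0.25, adjusted p = 0.0544) against Ki67-negative and 0.49 (SE 0.25, adjusted p = 0.155) against Ki67-positive nests. It crossed the threshold against Ki67-negative nests in DESeq2 (adjusted p = 0.0351), in the libraries with Ddx3y above Xist (0.0319), and without vismodegib library 2 (0.0137), Ki67-negative library 4 (0.0303) or Ki67-negative library 5 (0.0318). Without vismodegib library 2 it also crossed it against Ki67-positive nests (0.0454).

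S100a4, known as metastasin and as a marker of fibroblasts and some leukocytes, held 158, 62.3, 190.3, 229.5 and 158 CPM in vismodegib libraries, against 72.8, 117, 70.3, 137 and 67.9 CPM in Ki67-negative libraries and 209, 30.4, 45.4, 118 and 122 CPM in Ki67-positive libraries. The groups overlapped widely. On the log2 scale the difference was 0.78 (SE 0.45, adjusted p = 0.205) against Ki67-negative and 0.61 (SE 0.45, adjusted p = 0.356) against Ki67-positive nests.

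S100a3, a protein of the hair cuticle, was near the limit of detection. It had 1, 0, 10, 8 and 1 counts in vismodegib libraries, against 0, 1, 4, 2 and 0 counts in Ki67-negative and 1, 0, 6, 6 and 3 counts in Ki67-positive libraries, and was not tested. In the 4 libraries without a count, 0 counts allow a level of up to 0.419 to 0.490 CPM (3 counts of the total, for counting error only). The 7 hair cuticle and shaft genes found summed to 12.97 to 32.7 CPM after vismodegib, 30.7 to 98.3 CPM in Ki67-negative and 34.7 to 134 CPM in Ki67-positive nests. Hoxc13 averaged 3.74 CPM after vismodegib, against 61.0 CPM in Ki67-negative and 69.7 CPM in Ki67-positive nests, and was called lower in both comparisons. Krt32, at 17.8, 0.174 and 0.418 CPM in these groups, was called higher in both. Krt32 was tested because of its level after vismodegib. Hoxc13 passed the count filter through the untreated libraries, with 3 counts in vismodegib library 2. The direction of neither gene carries weight.

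S100a8 and S100a9, the chains of calprotectin, varied more within the groups than nearly any other gene. Their biological coefficients of variation were 1.32 and 1.38, with 43 and 38 of the 17282 tested genes higher, whereas the other 7 tested S100 genes had values of 0.211 to 0.488. S100a8 held 114, 27.2, 267, 316 and 162 CPM in vismodegib libraries, against 11.8, 21.1, 19.2, 949 and 278 CPM in Ki67-negative libraries and 533, 19.9, 10.7, 23.3 and 26.5 CPM in Ki67-positive libraries. S100a9 held 78.6, 12.02, 285, 259.9 and 82.8 CPM in vismodegib libraries, against 10.2, 13.9, 21.8, 1083 and 109 CPM in Ki67-negative libraries and 381, 13.7, 7.37, 23.5 and 34.8 CPM in Ki67-positive libraries.
The pair was high in the same libraries: vismodegib libraries 1, 3, 4 and 5, Ki67-negative libraries 4 and 5, and Ki67-positive library 1. Against Ki67-negative nests the log2 differences were -0.53 (SE 1.36, adjusted p = 0.801) for S100a8 and -0.78 (SE 1.43, adjusted p = 0.711) for S100a9, and against Ki67-positive nests they were 0.53 (SE 1.37, adjusted p = 0.814) and 0.65 (SE 1.43, adjusted p = 0.784). Without Ki67-negative library 4 the differences against that group turned to 1.10 (adjusted p = 0.574) and 1.89 (adjusted p = 0.297). Without Ki67-positive library 1 those against its group were 3.15 (adjusted p = 0.103) and 2.87 (adjusted p = 0.183), so neither setting gave a call.

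Markers of myeloid cells were read beside the pair. The 10 neutrophil markers summed to 4.74 to 13.1 CPM in vismodegib libraries, 5.16 to 61.2 CPM in Ki67-negative and 4.16 to 14.97 CPM in Ki67-positive libraries. The highest sum was that of Ki67-negative library 4, where the neutrophil receptor genes Cxcr2 and Csf3r reached 33.4 and 22.5 CPM and the monocyte gene Cd14 reached 162 CPM, the library with the most S100a8 and S100a9. In Ki67-positive library 1, the other very high untreated library, the neutrophil markers summed to 11.8 CPM, and in vismodegib libraries 3 and 4 to 5.25 and 4.74 CPM. Ly6g, which defines mouse neutrophils, was between 0 and 0.151 CPM in all 15 libraries, and Elane was at 0 in all of them.
The 10 monocyte and macrophage markers summed to 91.7 to 324 CPM after vismodegib, 80.3 to 360.1 CPM in Ki67-negative and 47.1 to 168 CPM in Ki67-positive nests, with Ki67-negative library 4 highest. In that library Cd14 alone gave 162 of the 360.1 CPM. Among the markers tested, Csf1r was called higher after vismodegib in both comparisons, and Csf3r and Cd14 lower against Ki67-negative nests. Both lower calls include Ki67-negative library 4. In the other Ki67-negative libraries Cd14 held 0.968 to 8.885 CPM and Csf3r 2.10 to 5.09 CPM. After vismodegib Cd14 held 0.949 to 6.81 CPM and Csf3r 0.792 to 2.23 CPM. Whether these calls hold without library 4 was not tested. In bulk samples, fewer cells of a type and less RNA per cell cannot be told apart, and the part of these cells in the S100 values was not tested.

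**Figure D3:**
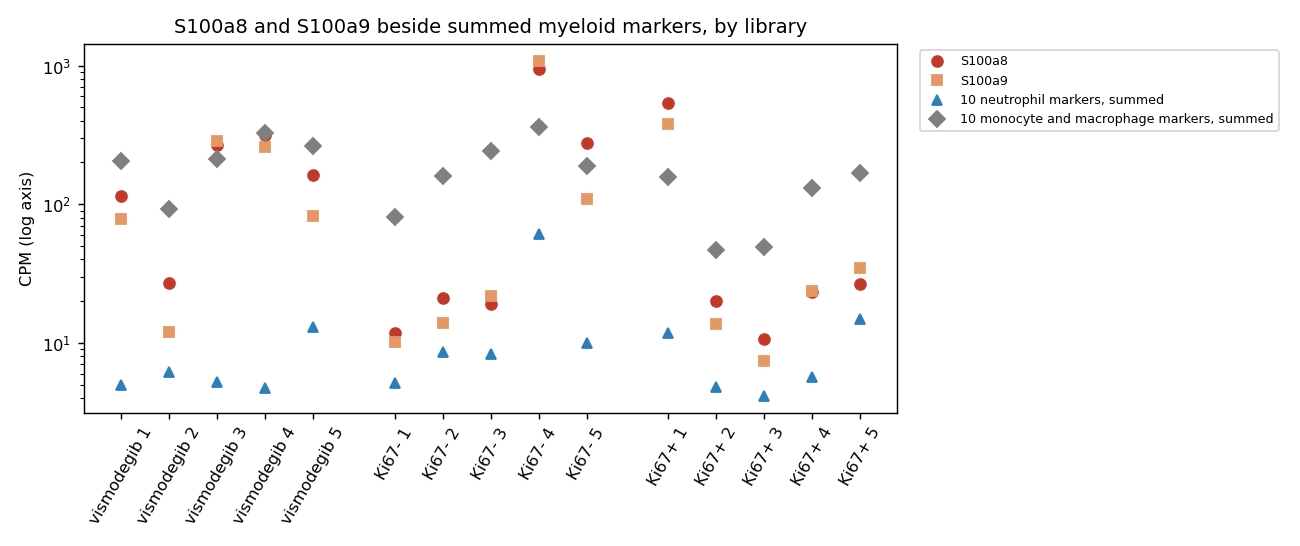
S100a8 and S100a9 (circles and squares) in each of the 15 libraries, with the summed neutrophil (triangles) and monocyte and macrophage markers (diamonds), all in CPM on a log axis. The pair is highest in Ki67-negative library 4, at 949 and 1083 CPM, where both marker sums are also highest. Cd14 alone gave 162 of the 360.1 CPM of the monocyte and macrophage sum there.

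The ratio of S100a8 to S100a9 counts, which needs no scaling between libraries, stayed within 0.762 and 2.56 over the 15 libraries although S100a9 itself ranged from 7.37 to 1083 CPM. Its mean log2 value was 0.57 ± 0.51 after vismodegib, 0.36 ± 0.65 in Ki67-negative and 0.23 ± 0.42 in Ki67-positive nests (SD, n = 5 each). No difference passed an exact two-sided permutation test adjusted over the 6 ratio tests made: vismodegib minus Ki67-negative was 0.21 (p = 0.556, adjusted p = 0.833), vismodegib minus Ki67-positive 0.34 (p = 0.270, adjusted p = 0.540) and Ki67-negative minus Ki67-positive 0.13 (p = 0.762, adjusted p = 0.905).

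S100a10 had a lower ratio to Anxa2, the annexin A2 gene, after vismodegib. Anxa2 averaged 694 ± 118 CPM after vismodegib, against 226 ± 84.2 CPM in Ki67-negative and 266 ± 63.8 CPM in Ki67-positive nests (SD, n = 5 each), log2 differences of 1.62 (adjusted p = 2.62e-05) and 1.39 (adjusted p = 0.000119). The ratio of S100a10 to Anxa2 counts was 0.312, 0.293, 0.256, 0.302 and 0.286 in vismodegib libraries, against 0.3496, 0.466, 0.580, 0.377 and 0.543 in Ki67-negative libraries and 0.427, 0.432, 0.507, 0.574 and 0.331 in Ki67-positive libraries. Every vismodegib library had a lower ratio than every untreated library. The mean log2 ratio was -1.79 ± 0.11, -1.14 ± 0.32 and -1.16 ± 0.30 in these 3 groups (SD, n = 5 each). It was lower after vismodegib by a log2 difference of -0.65 against Ki67-negative and -0.63 against Ki67-positive nests, with an exact two-sided permutation p = 0.00794 for each, the smallest that the splits of 5 against 5 libraries can give, and adjusted p = 0.0238 over 6 tests. Ki67-negative and Ki67-positive nests differed by 0.03 (exact permutation p = 0.905, adjusted p = 0.905).

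**Figure D4:**
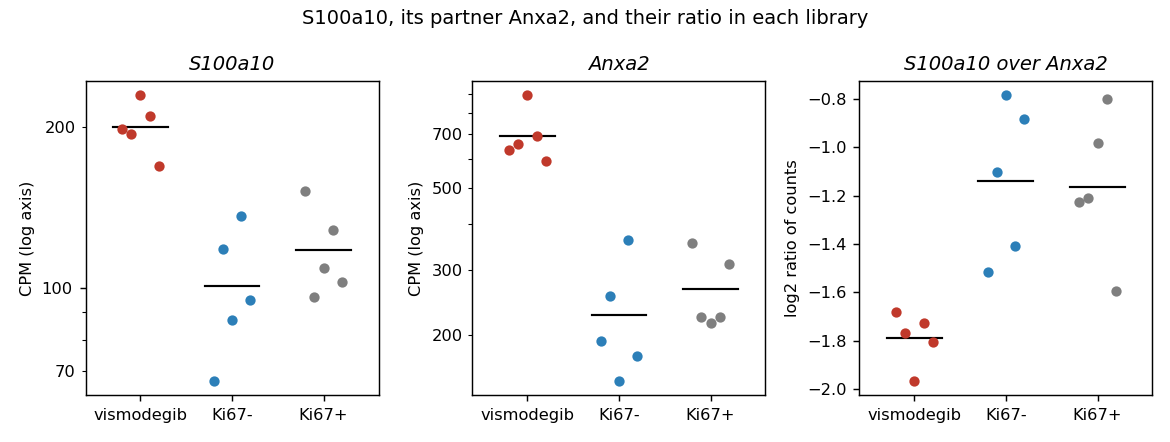
S100a10 and Anxa2 in CPM on log axes, and the log2 ratio of their counts, with a point for each library and a line at the mean of each group of 5. The 5 vismodegib libraries lie highest for both genes and lowest for the ratio, at -1.97 to -1.68.

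Per length, in the deposited RPKM divided by a size factor, S100a6 stood first after vismodegib (184 ± 60.7 RPKM), above the next gene in all 5 libraries, and S100a8 followed (124 ± 82.5 RPKM, SD, n = 5). S100a14 (79.4 ± 24.2 RPKM), S100a10 (77.7 ± 8.83), S100a9 (75.4 ± 64.0), S100a4 (69.9 ± 27.6) and S100a11 (65.1 ± 8.58) came next, and no neighbours among these 5, nor S100a8 and S100a14, kept their order in all 5 libraries. S100a16 (29.4 ± 8.42), S100a13 (7.28 ± 0.921) and S100a3 (0.0627 ± 0.0684) had the lowest means. Each of S100a11, S100a16 and S100a13 exceeded the next of these in all 5 libraries, but in vismodegib library 2 S100a9 was at 6.25 RPKM, below S100a16 (15.9) and level with S100a13 (6.24).
In Ki67-negative nests the means of S100a8 (180.4 ± 283 RPKM) and S100a9 (130.2 ± 246) stood above S100a6 (119.7 ± 41.5), yet S100a9 exceeded S100a6 in 1 of 5 libraries. In Ki67-positive nests S100a6 (132 ± 23.1 RPKM) stood above S100a8 (86.4 ± 161) in 4 of 5 libraries. S100a8 and S100a9 together made up 6.81 to 37.8% of the summed RPKM of the 10 genes in vismodegib libraries, 6.39 to 76.2% in Ki67-negative and 4.38 to 57.4% in Ki67-positive libraries. Without that pair the sum was 344 to 630.1 RPKM after vismodegib, 198 to 386 RPKM in Ki67-negative and 237 to 427 RPKM in Ki67-positive nests, a range in which the groups overlap.

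Likeness of pattern was measured as the root mean square distance between log2 CPM values centred on each gene's mean, over the 15 libraries, so the shared group difference enters it. Among the S100 genes the closest pairs were S100a14 with S100a16 (0.240) and S100a10 with S100a11 (0.304), each pair from the same block. S100a8 and S100a9 lay 0.495 apart and at least 1.65 from every other member. Among all genes with an average log2 CPM of at least 3, those nearest to S100a10 were Ino80c (0.178), Anxa1 (0.183), the partner of S100a11, and Rnh1 (0.193). Nearest to S100a11 were Atp2b4 (0.213), a plasma membrane calcium pump, Rasgrp1 (0.214) and Il13ra1 (0.222), and to S100a13 Trim13 (0.230), Mid2 (0.243) and Strc (0.251). Next to S100a14, after S100a16, came Psme2b (0.268) and Psme2 (0.269), near-identical copies whose reads the counting could split. S100a16 was nearest to Calm2 (0.211), a calmodulin gene, Pls3 (0.224) and Tmsb4x (0.231). S100a8 and S100a9 were not called, and their neighbours were looked up after their values were seen: beside each other, the nearest were Ccl2 (1.07) for S100a8 and Pla2g4e (1.09) for S100a9.

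Ki67-negative and Ki67-positive untreated nests were compared next. The edgeR test called 0 of the 9 S100 genes, as did DESeq2 and limma-voom, and at an unadjusted p under 0.05 the count was also 0, the lowest being 0.137 for S100a14. Across all genes 0.174% were called. The log2 differences of the 7 genes other than S100a8 and S100a9 were -0.38 (SE 0.25) for S100a14, 0.33 (SE 0.28) for S100a13, and between -0.22 and 0.10 for the other 5. S100a8 and S100a9 had differences of 1.06 (SE 1.38) and 1.43 (SE 1.45), which were -0.56 and -1.24 without Ki67-negative library 4 and 3.68 and 3.66 without Ki67-positive library 1, with no call in either setting.

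Annexins and other intracellular partners of S100 proteins moved in both directions. Against Ki67-positive nests 6 of 13 were higher after vismodegib (Anxa1, Anxa2, Anxa4, Anxa7, Anxa8 and Ahnak) and 2 lower (Anxa6 and S100pbp), with a median log2 difference of 0.47. Against Ki67-negative nests 7 were higher, the same 6 and Cacybp, and the same 2 lower, also with a median of 0.47. Anxa1, the annexin that S100a11 binds, differed by 1.17 (adjusted p = 0.000308) and 1.04 (adjusted p = 0.00100) against Ki67-negative and Ki67-positive nests. Anxa8, another annexin of epithelia, differed by 1.56 and 1.57, and Ahnak, a giant scaffold that S100a10 with annexin A2 binds, by 1.21 and 1.21. S100pbp, named for its product's binding of S100P, fell to 83.1 ± 11.5 CPM after vismodegib, against 138 ± 18.6 CPM in Ki67-negative and 162 ± 6.71 CPM in Ki67-positive nests (SD, n = 5 each; log2 differences -0.73 and -0.96, adjusted p = 0.000228 and 2.06e-05). Anxa5 (0.04 and 0.15) and Myh9, the myosin heavy chain that S100a4 binds (-0.08 and -0.17), were not called.

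Of 8 receptors reported for secreted S100 proteins, Nptn was higher after vismodegib in both comparisons and Alcam and Mcam lower in both, while Cd36 and Egfr were called higher against Ki67-positive nests (log2 differences 2.37 and 0.35) and not against Ki67-negative nests (1.56 and 0.19), a contrast that was not itself tested. The medians of the 8 were -0.25 against Ki67-negative and 0.18 against Ki67-positive nests. Mcam, reported as a receptor of S100a8 with S100a9, averaged 12.2 CPM after vismodegib, against 106 CPM in Ki67-negative and 129 CPM in Ki67-positive nests (log2 differences -3.13 and -3.41, adjusted p = 3.45e-08 and 1.90e-08). Ager, the receptor RAGE, averaged 1.74, 3.38 and 3.50 CPM in these 3 groups and Tlr4 7.81, 12.7 and 7.73 CPM, and neither was called.

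Relatives of the S100 genes outside the list went separate ways. Of 9 other single S100 genes, 8 were found and S100a1 and S100b were tested. S100p, the gene of the protein that S100pbp is named for, was not found. S100a1, the neighbour of S100a13, averaged 12.9 CPM after vismodegib, against 15.4 CPM in Ki67-negative and 17.3 CPM in Ki67-positive nests (adjusted p = 0.472 and 0.231), and S100b, a marker of Schwann cells and melanocytes, 2.78 CPM, against 4.01 and 4.18 CPM (adjusted p = 0.603 and 0.575). Fused-type S100 genes encode long repeat proteins of the cornified layer behind an S100 domain, and 4 of 7 were tested. Flg, profilaggrin, averaged 384 ± 99.6 CPM after vismodegib, against 6.76 ± 9.11 CPM in Ki67-negative and 17.5 ± 19.5 CPM in Ki67-positive nests (SD, n = 5 each; log2 differences 5.80 and 4.49, adjusted p = 0.000823 and 0.00329). Hrnr, hornerin, which entered the test through its level after vismodegib, was also called higher (5.51 and 5.21, adjusted p = 0.000633 and 0.000923), whereas Rptn (1.97 and 2.77) and Tchh (0.84 and 0.66) were not called.

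Calmodulin genes, whose products carry the same kind of calcium-binding loop, included Calm2, Calm4, Calm5 and Calml3, called higher after vismodegib against Ki67-negative nests, and Calm2, Calm4 and Calm5, called higher against Ki67-positive nests. Calm4, an epidermal form, averaged 233 ± 66.4 CPM after vismodegib, against 15.9 ± 15.4 CPM in Ki67-negative and 30.7 ± 20.8 CPM in Ki67-positive nests (SD, n = 5 each). Calm5 had 269 counts after vismodegib, against 0 in Ki67-negative and 1 in Ki67-positive nests. It was tested because of its level after vismodegib, so the direction of its calls carries no weight. With 3 counts over the Ki67-negative group as the floor, its level after vismodegib was at least 71.6-fold that of Ki67-negative nests. Calm3 was not called in either comparison.

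The stretch between the blocks holds the cornified envelope genes. Of 83 other genes in the 2825 kb between S100a9 and S100a11, 30 were tested and 53 were not. Of the 30, 22 would have failed the count filter in the 10 untreated libraries and so were tested because of their level after vismodegib, among them Lor, Hrnr and most Lce genes, and their direction carries no weight. Of the 8 that would have passed it there, 5 were higher after vismodegib in both comparisons, among them Ivl and Flg. Near-identical copies in the Lce and Sprr families make their single values uncertain. In the 500 kb before the first block, 19 genes were tested, of which 4 were higher and 2 lower against Ki67-negative nests and 2 higher and 2 lower against Ki67-positive nests. Over all genes tested, 31.9% were called against Ki67-negative and 26% against Ki67-positive nests. No other gene within the blocks, nor in the 500 kb after the second, was tested.

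**Figure D5:**
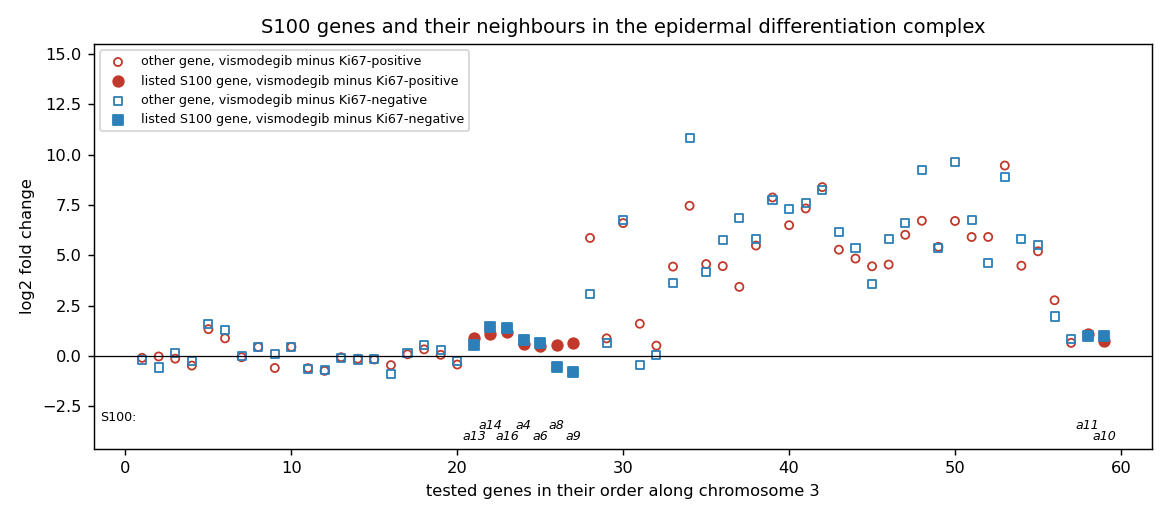
Log2 fold changes of the tested genes along this stretch of chromosome 3, in gene order and not to scale, with S100 genes filled and named below. Folds of genes without counts in a group depend on the fit's prior count. The S100 genes called higher after vismodegib reach at most 1.46, while Flg between the blocks reaches 5.80 against Ki67-negative nests.

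Markers of other skin compartments were read beside these rises. The 8 suprabasal epidermis markers, among them Krt1, Krt10 and Lor, summed to 4060 to 5535 CPM after vismodegib. In Ki67-negative nests they summed to 233 to 841 CPM, and in Ki67-positive nests to 297 to 909.7 CPM. All 8 were called higher in both comparisons, though Lor was tested because of its level after vismodegib and its direction carries no weight. The 8 basal keratinocyte and carcinoma markers summed to 11830 to 15320 CPM, 9006 to 11000 CPM and 10400 to 11210 CPM in the same order. That sum joins genes that moved in opposite directions. Krt14, Krt5 and Krt15 were called higher after vismodegib in both comparisons. Ptch1, Gli1 and Gli2 were called lower in both, Krt17 lower against Ki67-positive nests only, and Trp63 was not called. The 8 dendritic and Langerhans cell markers summed to 745 to 2184 CPM, 143 to 447 CPM and 92.2 to 471 CPM, and 5 and 7 of them were called higher against Ki67-negative and Ki67-positive nests. T cell markers summed to 131 to 240.4 CPM, 93.3 to 204 CPM and 79.7 to 185 CPM. In each comparison 5 of the 7 were called higher (Cd3e, Cd3g, Cd5 and Ptprc in both), while Thy1 was called lower against Ki67-negative nests. Fibroblast markers summed to 435 to 3641 CPM, 2605 to 4860 CPM and 1737 to 6030 CPM, with 3 of 8 lower after vismodegib in both comparisons. Schwann cell and melanocyte markers summed to 169 to 360.3 CPM, 237 to 921 CPM and 325 to 1131 CPM, with 3 of the 7 tested lower in each comparison, and endothelial markers to 19.0 to 47.4 CPM, 9.84 to 80.9 CPM and 11.8 to 55.6 CPM. Flt3, called against Ki67-positive nests, and Cd2, called against Ki67-negative nests, passed the count filter mainly through vismodegib libraries. Their direction carries no weight. The part of these cell types in the S100 differences was not tested.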

How the data were processed

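The deposited values used in every test are raw counts of uniquely aligned reads per gene model, per the file headers. Reads were aligned with GSNAP to GRCm38, per the submitters' processing notes, while its version, the gene annotation and any strand setting were not given in the sources used here. The authors also deposited RPKM adjusted with library size factors (per the file headers), which served only to set genes side by side per length. Symbols, coordinates and promoter windows come from RefSeq GRCm38.p6, with 31049 of 36528 identifiers (85.0%) matched.

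Library numbers follow accession order and carry no pairing. Genes were kept by filterByExpr (minimum count 10, minimum total 15), libraries scaled by TMM (factors 0.937 to 1.05), and 3 comparisons tested, two-sided, with the robust quasi-likelihood F test of edgeR 4.0.16 in R 4.3.3 (12 residual degrees of freedom), after a test on simulated counts. Ratios of counts plus 0.5 were tested by exact permutation in scipy 1.17.1. Intervals and floors cover counting error only. Alternatives were DESeq2 1.42.0, limma-voom 3.58.1, other scalings and filters, an Xist covariate, only libraries with Ddx3y above Xist, and leaving out each library.

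The members, lists and tests were chosen with earlier results of these data known. Genes named are the 10 members, 5 lists of relatives, partners, receptors and calmodulins, 10 marker lists, control genes, and for each called member the 3 genes of nearest pattern (average log2 CPM of at least 3, prior count 2). Single genes of the Lce and Sprr families, and the neighbours of S100a8 and S100a9, fell outside this rule. A listed gene is not reported here.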

Additional observations from a re-analysis of the deposited data

Results flagged for a closer look

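Within groups of 5 libraries, 36 sets of values were examined for a library far from the others, and 5 held one. For independent values of a normal distribution, chance alone gives about 1 in 20. The CPM values were not transformed, and S100a8 and S100a9 are high in the same libraries, so that rate need not hold here. A library counted as far where its gap to the nearest other value, divided by the range of the group, was above Dixon's critical value of 0.71.

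S100a8 stood apart in Ki67-negative library 4, with 948.6 CPM and the next library at 278 CPM (gap over range 0.716), and in Ki67-positive library 1, with 532.7 CPM and the next at 26.5 CPM (0.970). S100a9 stood apart in the same libraries, at 1083 CPM with the next at 109 CPM in Ki67-negative nests (0.908) and at 381.4 CPM with the next at 34.8 CPM in Ki67-positive nests (0.927). The 10 neutrophil markers summed to 61.2 CPM in Ki67-negative library 4, the highest of all 15 libraries, and to 11.8 CPM in Ki67-positive library 1.

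S100a13 stood apart in Ki67-negative library 5, at 31.1 CPM with the next library at 14.95 CPM (0.772). That library had the fewest genes with a count, and it was the only Ki67-negative library with Xist above Ddx3y.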

How the results depend on the processing

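Against Ki67-positive nests, S100a11 and S100a16 were called under all 23 alternatives, and against Ki67-negative nests S100a10, S100a11, S100a14 and S100a16 were. With only libraries in which Ddx3y exceeded Xist, the number of S100 genes called against Ki67-positive nests was 2 rather than 5, and the differences in the log2 ratio of S100a10 to Anxa2 were -0.5625 against Ki67-negative and -0.7097 against Ki67-positive nests (adjusted p = 0.400 for both, exact permutation test). That setting leaves 2 vismodegib libraries against 4, too few for this permutation test to pass. Leaving out each library in turn gave 4 to 6 called genes against either untreated group and 0 between the untreated groups. The same settings put the S100a10 to Anxa2 difference at -0.75 to -0.56 against Ki67-negative, -0.73 to -0.54 against Ki67-positive nests and -0.08 to 0.12 between untreated groups. For S100a8 to S100a9 they gave 0.07 to 0.46, 0.19 to 0.51 and -0.12 to 0.27. No paired analysis was possible because the labels give no replicate numbers. At these depths S100a3 could not be compared, and the spread of S100a8 and S100a9 leaves standard errors of 1.36 to 1.45 on the log2 scale.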
